A study of Mus musculus with 10 samples.

Results

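The autophagy machinery was described here as 38 genes chosen by name, covering the complexes that start, build and load the autophagosome, the receptors that bring cargo to it, the lysosomal membrane proteins LAMP1 and LAMP2, and the transcription factor TFEB. All 38 were found among the 53974 genes of the RNA-seq table and all 38 were among the 17555 genes that passed the filter on low values (kept were genes that reached 1 TPM in no fewer than 3 of 6 libraries). TPM is transcript abundance scaled for gene length and to a fixed sum per library. For chromatin, the regions within 1000 bp of either end of these genes were taken from the 16600 regions of the ATAC-seq comparison.

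Cells came from retinas of C57BL/6 mice aged 8 to 10 weeks that carried floxed *Arid1a* alleles, *Arid1a* encoding a DNA-binding subunit of the SWI/SNF chromatin remodelling complex. The WT group (Arid1a fl/fl) received AAV2-GFP and the cKO group (Arid1a del/del) received AAV2-Cre into the vitreous, with expression driven by the CMV promoter, which is not restricted to retinal ganglion cells (RGCs). In all mice the optic nerve was crushed (optic nerve crush, ONC) 2 weeks after the injection, cells were sorted with an antibody to Thy1.2 at 3 days after ONC, and 4 to 5 retinas were pooled per sample, so neither an uninjured nor a virus-free group was analysed here. RNA-seq covered 3 WT and 3 cKO libraries, and ATAC-seq, which reads open chromatin, covered 2 and 2.

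Autophagy carries cytoplasm, aggregates and damaged organelles to the lysosome in a membrane-bound vesicle. The ULK1 kinase complex starts the process, the VPS34 lipid kinase complex marks the growing membrane, lipid carriers feed it, and conjugation enzymes attach the small ubiquitin-like Atg8 proteins (the LC3 and GABARAP families) to it, where receptors such as p62 and optineurin bind. In neurons, autophagosomes form in axons and travel to the cell body, and the pathway is known to be active in RGCs after damage to the optic nerve. TFEB drives many lysosomal and autophagy genes through the sequence CACGTG in their promoters.

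The label of these cells was checked against marker genes. The summed TPM of 15 RGC markers was 194 to 276 in WT and 260 to 294 in cKO. The RGC transcription factors *Pou4f2* and *Pou4f3* and the glutamate transporter gene *Slc17a6* had mean values under 1 TPM, and *Rbpms*, an RNA-binding protein gene of RGCs, was at 1.82 to 6.43. *Pou4f1* was at 0.084 to 3.60, *Sncg* at 0.83 to 4.55, *Nrn1* at 1.70 to 4.89 and *Nefh* at 1.56 to 5.78. *Nefm* reached 8.27, *Stmn2* 8.51 and *Tubb3* 12.0. The remaining genes of the list, which other retinal cells also express, reached higher values. *Thy1*, the gene of the sorted antigen, was at 94.4 to 129 in cKO and at 51.9 to 88.5 in WT. Over all libraries, *Isl1* was at 51.9 to 104, *Gap43* at 24.3 to 67.9 and *Nefl* at 5.47 to 20.6. Of the 12 RGC markers tested, 7 had a log2 fold change above 0 and 5 below. At an unadjusted p under 0.05 by limma, 3 were higher in cKO and 0 lower, against 11.9% and 6.45% of all genes tested. In contrast, the summed TPM of 10 rod markers was 12707 to 17690 in WT and 26140 to 49036 in cKO, so rod RNA far exceeded RGC RNA and the libraries are called Thy1.2-sorted retinal cells here. None of these markers was listed at 0 in all 6 libraries. *Arid1a* itself, the targeted gene, read 18.8, 27.9 and 25.001 TPM in the libraries labelled cKO, no lower than in those labelled WT (18.8, 11.7 and 14.1 TPM), with a log2 fold change of 0.66 and an adjusted p of 0.274 from limma. RNA directions are therefore given by label. By immunostaining, the authors reported less ARID1A protein in RGCs after AAV2-Cre, and beta-III tubulin, a neuronal protein, in almost all sorted cells. Those are measures of protein, unlike the RNA values given here.

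Sequences before the start sites are shown for 6 members because they hold the motifs of interest. The stretches of *Atg3*, *Wipi1*, *Sqstm1* and *Gabarapl1* lie wholly within an ATAC-seq region described further on, 72 bases of that of *Tfeb* do, and none of that of *Lamp1*. They are RefSeq sequences on GRCm38.p6, read 5′ to 3′ on the gene's strand, and end at the base before the start site. Capitals mark CACGTG alone in *Lamp1* (chr8:13158911-13159160, plus strand) and *Atg3* (chr16:45158674-45158828, plus strand), and GGGCGG or its reverse complement, the GC box, in *Wipi1* (chr11:109611390-109611639, minus strand), *Sqstm1* (chr11:50210821-50211070, minus strand), *Gabarapl1* (chr6:129532942-129533191, plus strand) and *Tfeb* (chr17:47736787-47737036, plus strand). The *Atg3* stretch is shortened to the 155 bases that lie outside the neighbouring gene *Slc35a5*.
Lamp1: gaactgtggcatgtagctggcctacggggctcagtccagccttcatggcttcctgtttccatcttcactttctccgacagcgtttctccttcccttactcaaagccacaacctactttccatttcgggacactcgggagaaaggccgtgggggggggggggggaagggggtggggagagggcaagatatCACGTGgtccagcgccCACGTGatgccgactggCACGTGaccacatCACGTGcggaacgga
Atg3: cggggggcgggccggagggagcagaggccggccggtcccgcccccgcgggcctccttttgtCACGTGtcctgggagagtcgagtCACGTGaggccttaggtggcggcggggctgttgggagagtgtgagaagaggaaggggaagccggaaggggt
Wipi1: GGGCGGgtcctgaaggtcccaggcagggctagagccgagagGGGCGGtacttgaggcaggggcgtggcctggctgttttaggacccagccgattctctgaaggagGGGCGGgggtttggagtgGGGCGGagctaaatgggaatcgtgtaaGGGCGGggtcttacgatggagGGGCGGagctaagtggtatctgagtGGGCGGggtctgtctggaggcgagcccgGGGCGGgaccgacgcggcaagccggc
Sqstm1: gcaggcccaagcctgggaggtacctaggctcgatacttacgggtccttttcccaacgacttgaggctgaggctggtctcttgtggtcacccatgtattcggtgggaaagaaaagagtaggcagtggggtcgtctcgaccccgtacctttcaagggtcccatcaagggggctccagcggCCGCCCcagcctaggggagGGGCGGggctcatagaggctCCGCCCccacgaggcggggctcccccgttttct
Gabarapl1: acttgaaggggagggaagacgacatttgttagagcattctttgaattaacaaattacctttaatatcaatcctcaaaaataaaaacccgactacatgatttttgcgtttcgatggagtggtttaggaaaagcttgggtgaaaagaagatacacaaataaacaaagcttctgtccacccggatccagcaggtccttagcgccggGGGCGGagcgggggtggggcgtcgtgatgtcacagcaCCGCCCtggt
Tfeb: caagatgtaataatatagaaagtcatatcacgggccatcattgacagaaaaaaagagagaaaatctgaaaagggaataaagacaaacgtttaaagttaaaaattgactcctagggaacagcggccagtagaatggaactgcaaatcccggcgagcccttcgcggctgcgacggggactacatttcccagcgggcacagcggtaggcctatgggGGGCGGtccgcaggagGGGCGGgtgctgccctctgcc

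Within these stretches, CACGTG matched at 4 places in *Lamp1*, which begin 61, 45, 28 and 15 bases before the start, and at 2 places in *Atg3*, 94 and 71 bases before it. The GC box matched at 8 places in *Wipi1*, 3 in *Sqstm1* and 2 each in *Gabarapl1*, *Tfeb* and *Atg3*, where it is left in lower case. Over windows of 250 bases before to 50 bases after a start, 32 of the 38 members had 37 windows. Both strands were searched. CACGTG was found in 13.51% of the members' windows and in 7.15% of all 32851 windows, the members being *Atg14*, *Atg3*, *Atg5*, *Atg7* and *Lamp1*. The GC box was found in 64.86% against 35.66%, in 22 member genes, and the members' windows were also richer in G and C, with a median of 60.0% against 52.7%. TGACGTCA, the cAMP response element, was found in 5.41% against 1.79%, CCGGAAG, an ETS motif, in 8.11% against 8.86%, and CCAAT in 27.03% against 37.41%. The NRF1 motif GCGCATGCG and the AP-1 motif TGANTCA matched in no member window, against 1.75% and 7.81% of all windows. CACGTG does not overlap the GC box in letters, and these matches describe letters only. The windows of *Pik3c3*, *Map1lc3a*, *Atg12*, *Becn1*, *Rb1cc1* and *Atg16l1* were not analysed here.

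The autophagy genes were well represented in these cells. Mean TPM over the 6 libraries ran from 6.95 for *Ulk2* to 771 for *Sqstm1*, with a median of 48.6, against a median of 14.98 over all genes tested. The members summed to 3427 to 4547 TPM in WT and 3890 to 4918 TPM in cKO, so the ranges of the groups overlapped. *Sqstm1*, *Gabarapl2*, *Map1lc3a*, *Lamp1*, *Gabarapl1* and *Map1lc3b* had the highest mean levels. Values of each member in each library are in the plot of TPM by library.

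**Figure D1:**
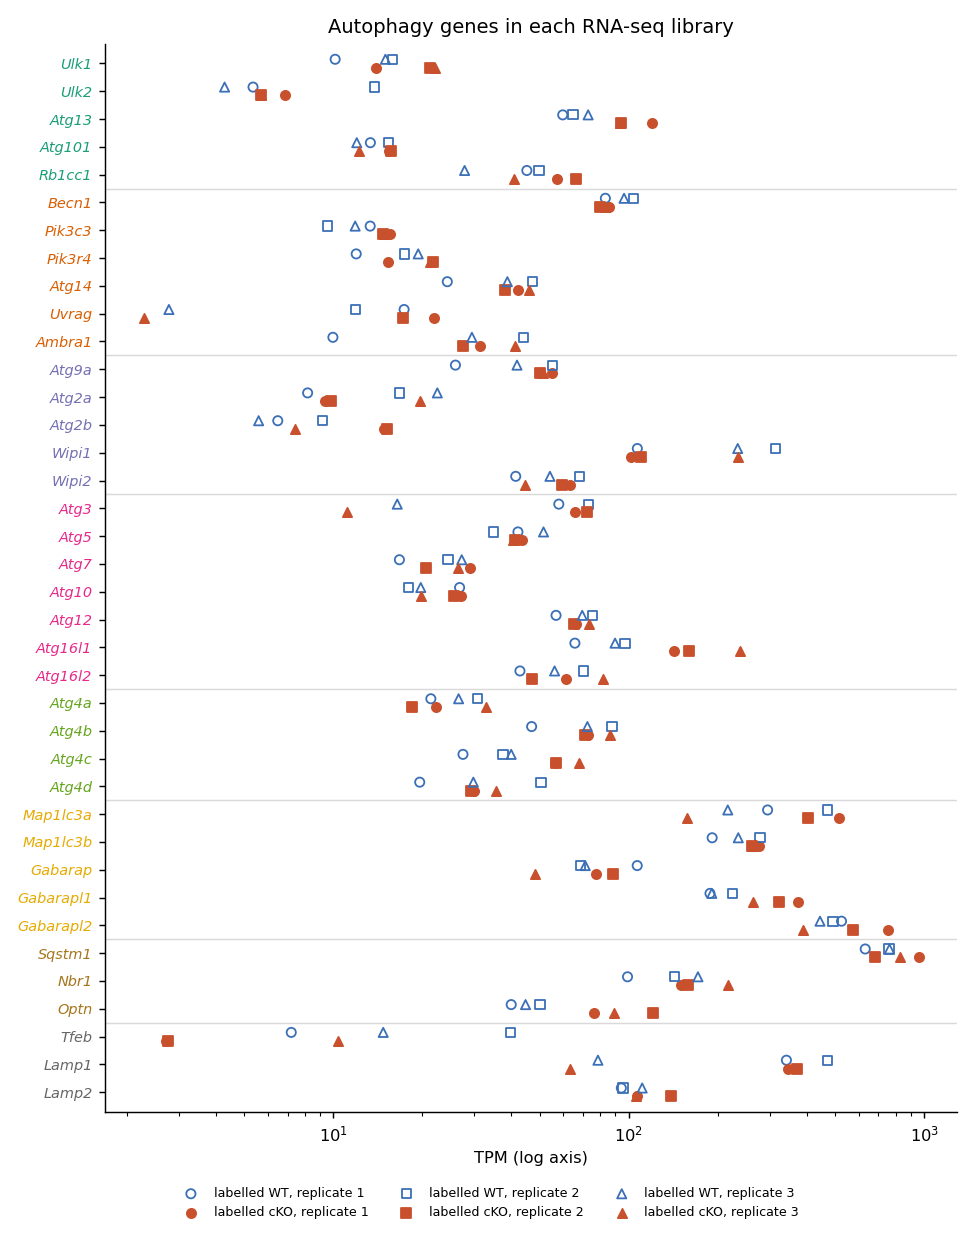
TPM (log axis) of each of the 38 autophagy genes, grouped by role, in the 3 RNA-seq libraries labelled WT (open blue symbols) and the 3 labelled cKO (filled red symbols), with the shape giving the replicate number. *Optn*, *Atg16l1*, *Atg4c*, *Gabarapl1*, *Atg13* and *Pik3c3* have every cKO library above every WT library, and *Uvrag*, *Atg3* and *Lamp1* have both triangles far to the left of the other libraries.

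To ask whether autophagy RNA differed between cKO and WT, log2(TPM + 1) was compared with limma. Of the 38 members, 0 passed an adjusted p of 0.05, where 0.00570% of all genes tested passed (1 gene). The lowest adjusted p among members was 0.125, for *Optn*. At an unadjusted p under 0.05, 5 members were higher in cKO (13.2% of members, against 11.9% of all genes tested) and 1 was lower (2.63%, against 6.45%). In 6 members every cKO library lay above every WT library (15.8%, against 18.7% of all genes), and in 0 members every cKO library lay below (against 7.18%). These shares are near the background, or under it for the lower direction. An exact two-sided permutation test of 3 against 3 libraries cannot give a p under 0.1.

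Most members had log2 fold changes near 0. The log2 fold change (cKO over WT) was above 0 for 28 members and below 0 for 10. Its quartiles were -0.01 and 0.39 over members, against -0.25 and 0.52 over all genes tested. Within 0.5 of 0 lay 30 members, with no share over all genes computed. A value near 0 was not always precise, with SEs of 0.87 (*Uvrag*), 0.82 (*Atg3*) and 0.88 (*Lamp1*). The median over members was 0.19, beside 0.16 over all genes tested, of which 61.1% were above 0, and 21 members lay above that median. With each library scaled by the median of ratios, the median of all genes moved to 0.01 and that of the members to 0.02, with 21 members above 0 and 17 below, and the genes at an unadjusted p under 0.05 went from 2095 higher and 1133 lower to 1338 higher and 1675 lower. The members at an unadjusted p under 0.05 still numbered 5 higher and 1 lower under that scaling. In these bulk libraries, fewer cells of a type and less RNA per cell cannot be told apart.

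**Figure D2:**
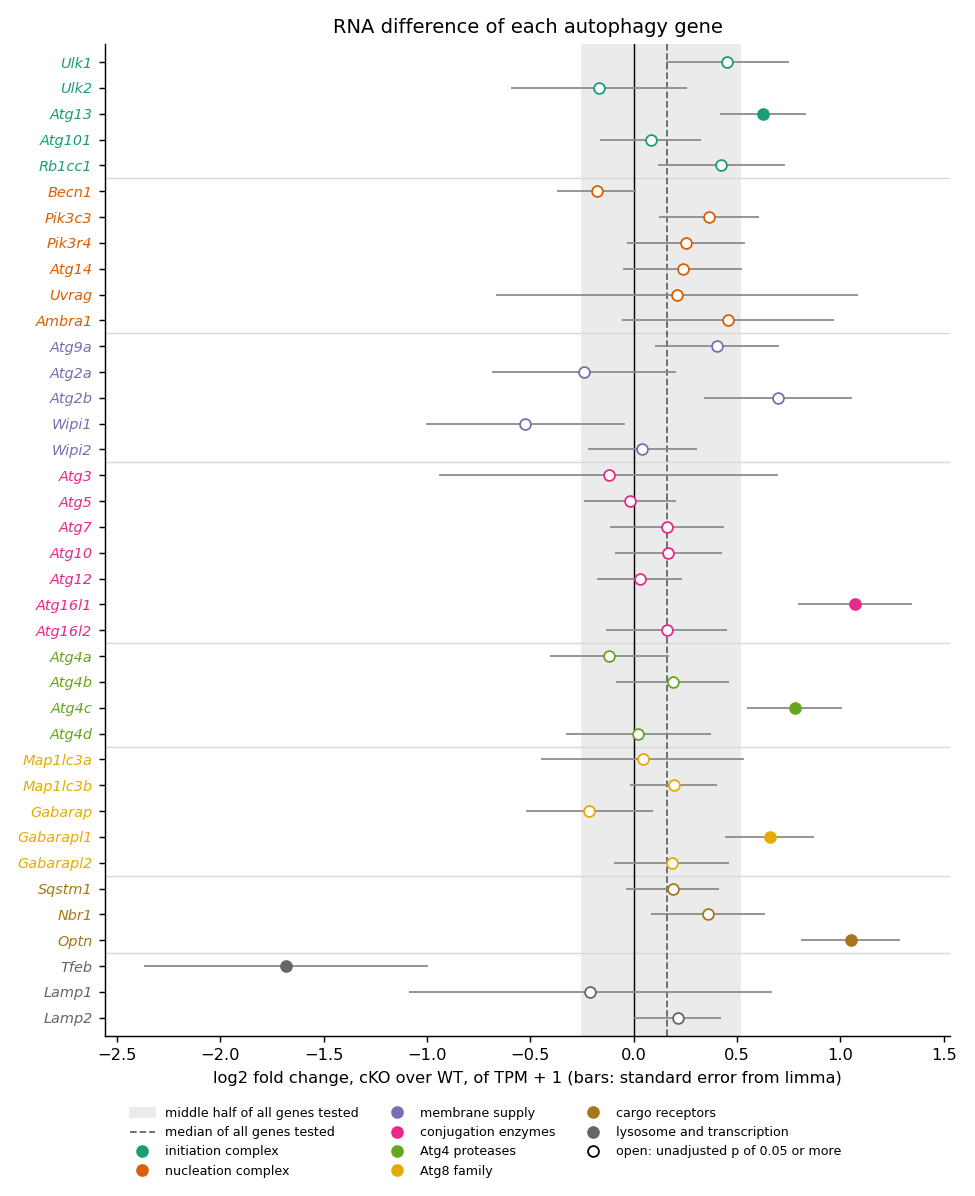
RNA log2 fold change of each autophagy gene (cKO over WT, on TPM + 1, 3 against 3 libraries), with bars of 1 standard error from limma. Filled points have an unadjusted p under 0.05, the grey band spans the middle part of all genes tested from the lower to the upper quartile (-0.25 to 0.52), and the dashed line is their median of 0.16. *Atg16l1* and *Optn* lie farthest right and *Tfeb* farthest left.

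Marker RNA of other cell types moved with the same labels. Rod and cone markers were higher in cKO (10 of 10 and 7 of 8 at an unadjusted p under 0.05), with cone sums of 2017 to 2523 TPM in WT and 3545 to 6166 in cKO. Amacrine markers summed to 441 to 620 and 891 to 1702, and bipolar markers to 1053 to 1408 and 1338 to 2222, with 3 of 9 and 2 of 9 higher. T cell markers were lower in cKO (12 of 13 at an unadjusted p under 0.05, sums of 968 to 2937 TPM in WT and 253 to 623 in cKO), as were myeloid markers (6 of 14, 2582 to 3909 and 1016 to 1483) and B cell markers (4 of 6 tested, 83.5 to 241 and 38.02 to 57.4). Mueller glia and astrocyte markers summed to 11701 to 21323 and 7559 to 18268 (3 of 10 lower), endothelial and pericyte markers to 478 to 1117 and 353 to 852 (1 of 6 tested lower), and erythrocyte markers to 94.3 to 1353 and 130.2 to 234 (0 of 5). The part of these cell types in any difference of an autophagy gene was not tested.

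The initiation complex holds the kinases ULK1 and ULK2, the scaffolds ATG13 and RB1CC1 (FIP200) and the stabilising subunit ATG101. *Atg13* was measured at 119, 94.1 and 93.6 TPM in cKO and at 59.8, 64.7 and 72.9 TPM in WT. All cKO libraries were above all WT libraries, and the log2 fold change was 0.63 (SE 0.21, adjusted p = 0.189). *Ulk1*, the kinase that receives nutrient signals, was measured at 13.9, 21.2 and 22.2 TPM in cKO and at 10.1, 15.8 and 15.005 TPM in WT. Its groups overlapped, since the lowest cKO library fell among the WT libraries, and the log2 fold change was 0.45 (SE 0.30, adjusted p = 0.456). The other 3 genes had log2 fold changes of 0.42 (*Rb1cc1*), 0.08 (*Atg101*) and -0.17 (*Ulk2*). Only *Atg13* of these 5 had an unadjusted p under 0.05, which rose to 0.0939 by limma without cKO replicate 1.

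The nucleation complex contains the lipid kinase VPS34 (*Pik3c3*), its regulatory kinase *Pik3r4*, beclin 1 (*Becn1*), the alternative partners *Atg14* and *Uvrag*, and *Ambra1*, a beclin-binding scaffold. *Pik3c3* was measured at 15.6, 14.8 and 14.8 TPM in cKO and at 13.3, 9.55 and 11.9 TPM in WT. The groups did not overlap, but the log2 fold change was 0.36 (SE 0.24, adjusted p = 0.462), and its groups overlapped under median-of-ratios scaling. *Becn1* was measured at 86.0, 80.0 and 82.9 TPM in cKO and at 83.3, 103 and 96.4 TPM in WT, with a log2 fold change of -0.18 (SE 0.19, adjusted p = 0.651). Its WT libraries reached higher, while the lowest WT value lay within the cKO range, and under that scaling all its cKO libraries lay below all WT libraries. The remaining 4 had log2 fold changes between 0.21 (*Uvrag*) and 0.46 (*Ambra1*) with adjusted p of at least 0.666. None of these 6 genes had an unadjusted p under 0.05.

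Membrane supply was represented by the scramblase ATG9A, the lipid carriers ATG2A and ATG2B and the phosphoinositide-binding WIPI1 and WIPI2. None of the 5 had an unadjusted p under 0.05 in the comparison without a block. The log2 fold change was 0.70 for *Atg2b* (SE 0.36, adjusted p = 0.342, and an unadjusted p of 0.0456 by limma with the replicate number as a block), 0.40 for *Atg9a*, 0.04 for *Wipi2*, -0.24 for *Atg2a* and -0.53 for *Wipi1* (SE 0.48, adjusted p = 0.593). *Wipi1* ranged from 102 to 234 TPM in cKO and from 107 to 314 TPM in WT.

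Among the conjugation enzymes, which load the Atg8 proteins onto lipid, *Atg16l1* stood apart. It encodes the subunit that brings the ATG12-ATG5 conjugate to the membrane and lies at chr1:87756007-87792428 (GRCm38.p6). It was measured at 142, 160.0 and 238 TPM in cKO and at 65.7, 97.2 and 89.9 TPM in WT. Every cKO library exceeded every WT library, with a log2 fold change of 1.07 (SE 0.27, adjusted p = 0.140). Leaving out any library kept the difference between 0.85 and 1.22. Its paralogue *Atg16l2* had 0.16 (SE 0.29), and its groups overlapped, at 47.0 to 82.1 TPM in cKO and 42.8 to 70.3 TPM in WT. The E1-like *Atg7*, the E2-like *Atg3* and *Atg10*, and the conjugated *Atg5* and *Atg12* had log2 fold changes from -0.12 to 0.17, with adjusted p of at least 0.761.

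The Atg4 proteases trim new Atg8 proteins and release them from membrane. *Atg4c* was measured at 56.1, 56.6 and 67.8 TPM in cKO and at 27.5, 37.5 and 40.0 TPM in WT. The groups were apart, with a log2 fold change of 0.78 (SE 0.23, adjusted p = 0.166) and values of 0.62 to 0.88 when a library was left out. The other 3 proteases were within 0.20 of 0 on the log2 scale, at -0.12 (*Atg4a*), 0.19 (*Atg4b*) and 0.02 (*Atg4d*).

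The Atg8 family was abundant and not uniform. *Gabarapl1* was measured at 375, 323 and 264 TPM in cKO and at 188, 224 and 191 TPM in WT. The groups did not overlap, with a log2 fold change of 0.66 (SE 0.22, adjusted p = 0.186), and the unadjusted p by limma rose to between 0.0615 and 0.0806 without WT replicate 3, cKO replicate 1 or cKO replicate 2. *Gabarapl2* was measured at 753, 572 and 389 TPM in cKO and at 525, 491 and 444 TPM in WT, so that the highest and the lowest of the 6 libraries were both cKO and the groups overlapped. Its log2 fold change was 0.18 (SE 0.28, adjusted p = 0.757), and -0.04 without cKO replicate 1. *Gabarap* was measured at 77.6, 88.3 and 48.2 TPM in cKO and at 106.8, 68.4 and 71.2 TPM in WT, with a log2 fold change of -0.22 (SE 0.31, adjusted p = 0.737). Its groups overlapped and the sign turned to 0.04 without cKO replicate 3.

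LC3B and LC3A are the usual markers of autophagosomes. *Map1lc3b* was measured at 275, 261 and 262 TPM in cKO and at 192, 278 and 235 TPM in WT, with overlapping groups and a log2 fold change of 0.19 (SE 0.21, adjusted p = 0.656). *Map1lc3a* was measured at 513, 404 and 158 TPM in cKO and at 295, 469 and 216 TPM in WT. The spread within each label was wider than the difference between labels, with a log2 fold change of 0.04 (SE 0.49, adjusted p = 0.974) that became -0.13 under median-of-ratios scaling. Of the 5 Atg8 genes, 1 had an unadjusted p under 0.05.

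The cargo receptors link ubiquitinated cargo to Atg8 proteins. *Optn*, which encodes optineurin, a receptor for damaged mitochondria whose gene is linked to glaucoma, lies at chr2:5020521-5064399 (GRCm38.p6). It was measured at 76.5, 120.5 and 89.1 TPM in cKO and at 40.0, 50.02 and 44.7 TPM in WT. The lowest cKO library was above the highest WT library, and the log2 fold change was 1.05 (SE 0.24, adjusted p = 0.125), the lowest adjusted p of the 38. It stayed between 0.87 and 1.19 when any library was left out. *Sqstm1*, the gene of p62, was measured at 958, 680.2 and 831 TPM in cKO and at 631, 760.3 and 763 TPM in WT. Its groups overlapped, with a log2 fold change of 0.19 (SE 0.22, adjusted p = 0.686), and *Nbr1* had 0.36 (SE 0.28, adjusted p = 0.523).

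*Tfeb* was the sole member with an unadjusted p under 0.05 in the lower direction. It was measured at 2.72, 2.76 and 10.4 TPM in cKO and at 7.203, 39.8 and 14.7 TPM in WT. cKO replicate 3 lay above WT replicate 1, so the groups overlapped, and the log2 fold change was -1.68 (SE 0.69, adjusted p = 0.257). It ran from -2.23 to -1.07 with a library left out, and the unadjusted p by limma was 0.126 without WT replicate 2, the highest library. The lysosomal membrane genes had log2 fold changes of -0.21 (*Lamp1*, SE 0.88) and 0.21 (*Lamp2*, SE 0.21), with adjusted p of 0.9198 and 0.618.

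Some members varied more with the replicate number than with the label. In 7 members both libraries numbered 3 were below the other 4 libraries (18.4% of members, against 10.1% of all genes tested), namely *Atg101*, *Rb1cc1*, *Uvrag*, *Atg3*, *Map1lc3a*, *Gabarapl2* and *Lamp1*. Both libraries numbered 3 were above the other 4 in 2 members (5.26%, against 8.33%). Those numbered 1 were below the others in 4 members (10.5%, against 9.57%) and above in 2 (5.26%, against 1.52%), and those numbered 2 were below in 0 (against 2.99%) and above in 2 (5.26%, against 6.91%). The drop was steepest in *Uvrag*, *Atg3* and *Lamp1*, chosen after their values were seen. *Lamp1* was at 63.3 (cKO) and 78.6 TPM (WT) in the libraries numbered 3, and at 342 to 470.2 TPM in the other 4. *Atg3* was at 11.1 and 16.5 TPM against 58.0 to 73.2, and *Uvrag* at 2.29 and 2.78 TPM against 11.9 to 21.95. In these 3 genes the mean of the libraries numbered 3 was 18.6%, 20.5% and 14.8% of the mean of the other 4, a fall to 25% or less that 3.77% of all genes tested showed. What the number 3 shares between the groups is not given in the sources used here, and its part in these values was not tested.

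Chromatin at the members' ends was described from the authors' log2 mean normalized reads of each group, given with no value per library and therefore with no error here. A region was listed within 1000 bp of an end for 29 of the 38 members (76.3%), against 51.5% of the 15518 tested genes with a position. In all 29 the value was lower in cKO by at least 1 on the log2 scale (100%), against 94.9% of genes that have a region. Lower values at gene ends were thus common to nearly all genes with a region. Over the members' 30 regions the median was 5.55 in WT and 2.86 in cKO, and the median difference (cKO minus WT) was -2.89, against -2.58 over 6966 regions at gene ends and -1.57 over all 16600 regions. After the median of all regions was subtracted, 17 of the 29 remained lower by at least 1 (58.6%, against 53.4% of genes with a region). The plot of region values by group shows each pair.

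**Figure D3:**
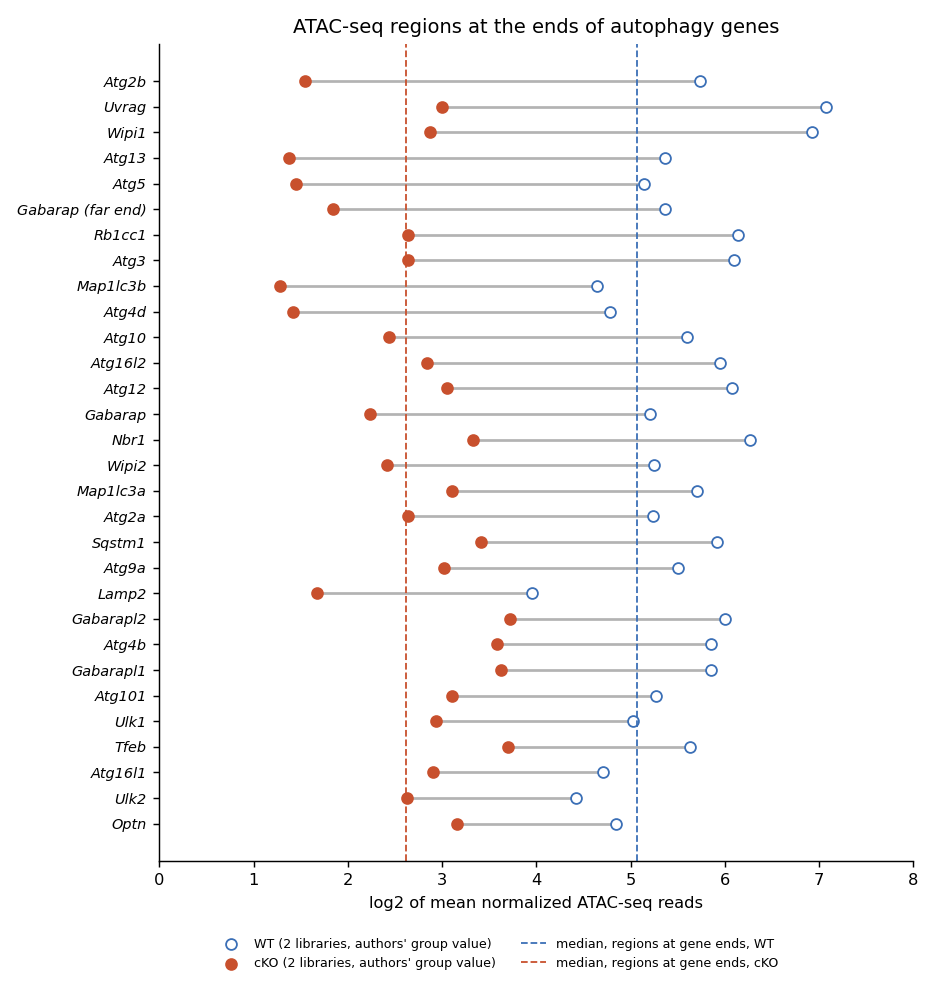
Log2 of mean normalized ATAC-seq reads (the authors' group values, 2 libraries each) of the 30 regions within 1000 bp of an end of an autophagy gene, in WT (open blue) and cKO (filled red), ordered by the difference. Dashed lines give the medians over 6966 regions at gene ends, 5.07 in WT and 2.62 in cKO. All 30 regions are lower in cKO, from *Atg2b* (-4.19) to *Optn* (-1.69).

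The members with the largest ATAC-seq differences came from several roles. *Atg2b* was at 5.74 in WT and 1.55 in cKO at chr12:105684472-105685620, a difference of -4.19. *Uvrag* (chr7:99140816-99141785) was at 7.07 and 3.0, and *Wipi1* (chr11:109611116-109612036), whose region holds the GC boxes printed above, was at 6.93 and 2.87. *Atg13* (chr2:91710339-91711099) was at 5.37 and 1.38. These are lipid carrier, nucleation, membrane and initiation genes. The smallest differences were those of *Optn* (chr2:5063370-5064583, 4.85 and 3.16), *Ulk2* (-1.79) and *Atg16l1* (chr1:87755691-87756549, 4.71 and 2.90), followed by *Tfeb* (chr17:47736965-47738362, 5.63 and 3.70). The abundant *Sqstm1* (chr11:50209836-50211117) was at 5.92 and 3.41, and *Gabarapl1* (chr6:129532756-129534885) at 5.85 and 3.62. Positions are on GRCm38 and counted from 1. *Gabarap* had a region at each end (-2.98 at the start and -3.53 at the far end), and 13 of the 30 regions also lay within 1000 bp of an end of another gene, so they cannot be assigned to the member alone.

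No region was listed within 1000 bp of either outer end for *Atg4a*, *Atg4c*, *Ambra1*, *Becn1*, *Pik3c3*, *Pik3r4*, *Atg7*, *Atg14* or *Lamp1*. Counted from annotated starts instead, 27 of the 32 members with such a start had a region within 1000 bp. Some of the genes named here thus had a region at a start inside the gene. The peak lists of single libraries, which give positions alone, added replicates to this picture. A peak within 1000 bp of an end was called for 32 and 31 members in the WT libraries and for 4 and 3 members in the cKO libraries, although the cKO libraries had 55902 and 68317 peaks in all beside 76522 and 42265 in WT. A peak in both WT libraries and in neither cKO library was found for 25 members (65.8%), against 37.5% of genes. These shares start from unlike bases, since both WT libraries had a peak for 31 of the 38 members and for 8008 of the 15518 genes. Of the genes with peaks in both WT libraries, no cKO peak was found for 25 of 31 members and for 5818 of 8008 genes. A peak in both cKO libraries was found for 0 members, against 2.27% of genes. A peak in a cKO library was found for 7 members (18.4%, against 25.2% of genes), *Atg4b*, *Atg12*, *Atg3* and *Lamp1* in cKO replicate 1 and *Gabarapl2*, *Map1lc3a* and *Map1lc3b* in cKO replicate 2. *Atg7* and *Atg14* had peaks in both WT libraries without a region listed at an outer end. *Lamp1*, with its 4 CACGTG matches, had a peak in cKO replicate 1 alone. Within 3000 bp, 16 members rather than 25 had peaks in both WT libraries and in no cKO library (42.1%, against 27.1% of genes). Of those with peaks in both WT libraries at that distance, these were 16 of 32 members and 4200 of 9325 genes.

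RNA and ATAC-seq values of the members were then set side by side. Of the 29 members with a region, all lower in cKO by ATAC-seq, RNA was higher in cKO for 22 and lower for 7, where 61.1% of all genes tested were higher. Only 16 of the 29 lay above the median of all genes, and with median-of-ratios scaling 16 were higher and 13 lower. Across these members the RNA log2 fold change and the ATAC-seq difference had a Pearson correlation of 0.02 and a Spearman correlation of 0.12, given as a description over genes that share the same libraries. *Atg13* combined a difference of -3.99 by ATAC-seq with an RNA log2 fold change of 0.63. That region also lay within 1000 bp of an end of *Harbi1*, as the *Atg16l1* region did for *Gm33517*. *Optn* and *Atg16l1*, whose RNA log2 fold changes were the highest, had 2 of the 3 smallest ATAC-seq differences (-1.69 and -1.81). *Tfeb*, with the lowest RNA log2 fold change, had a similar ATAC-seq difference of -1.93. The median RNA log2 fold change was 0.18 for members with a region at an outer end and 0.24 for the 9 without.

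**Figure D4:**
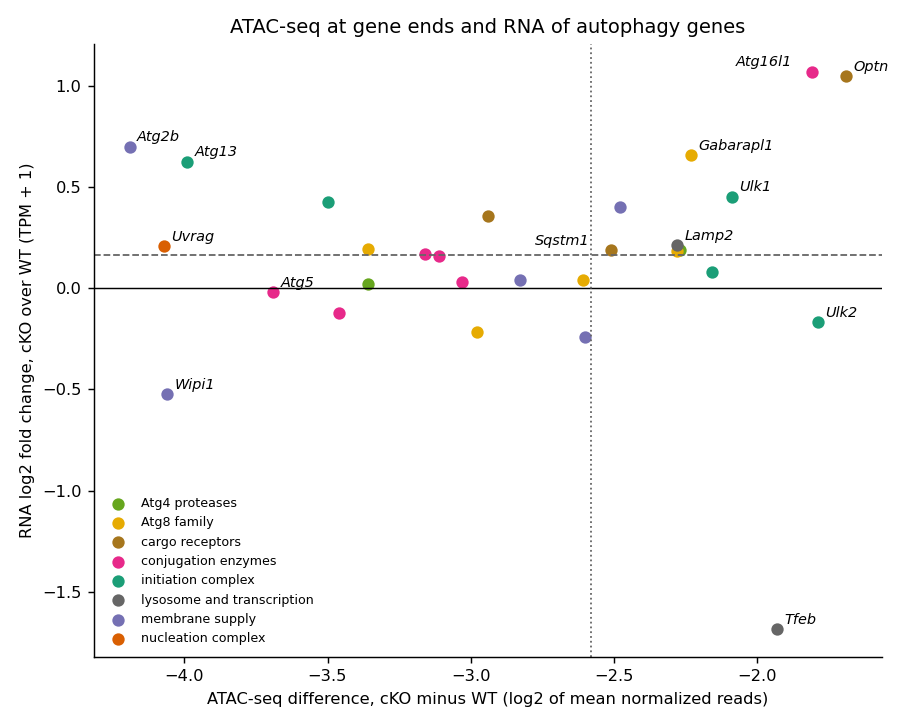
RNA log2 fold change (cKO over WT, TPM + 1) against the ATAC-seq difference (cKO minus WT, log2 of mean normalized reads) for the 29 autophagy genes with a region, coloured by role, with *Gabarap* placed by the region at its start. The dashed line marks the RNA median of all genes (0.16) and the dotted line the ATAC-seq median of regions at gene ends (-2.58). Points above 0 on the RNA axis run from -4.19 (*Atg2b*) to -1.69 (*Optn*) in ATAC-seq difference. Those below 0 run from -4.06 (*Wipi1*) to -1.79 (*Ulk2*), with none from -2.51 (*Sqstm1*) to -2.09 (*Ulk1*).

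Genes that act before and after the autophagosome were summarised from 7 further lists, with no gene at an adjusted p under 0.05. The vacuolar ATPase, the proton pump that acidifies the lysosome, stood out by its values. Of its 18 genes, 9 were higher in cKO at an unadjusted p under 0.05 and 0 lower, against 11.9% and 6.45% of all genes, with a median log2 fold change of 0.63 (0.46 with median-of-ratios scaling). *Atp6v1a*, the catalytic subunit, was at 216, 199 and 163 TPM in cKO and 94.6, 115 and 110.3 TPM in WT (log2 fold change 0.84, SE 0.21, adjusted p = 0.132). *Atp6v1b2* had 0.93 and *Atp6v0a1* 0.74, and in all 3 the groups did not overlap. The summed TPM of the list was 4332 to 5326 in WT and 5595 to 7911 in cKO. The pump also acidifies synaptic vesicles, and the rod, cone and amacrine markers given above were higher in the same libraries. The part of these cell types in the values of this list was not tested.

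In the nutrient sensing list (mTORC1, AMPK, Rag and their regulators), 4 of 32 genes were higher and 0 lower at an unadjusted p under 0.05. Of all genes tested, 11.9% were higher and 6.45% lower. The median of the list was 0.29 (0.13 with median-of-ratios scaling). *Fnip2*, a folliculin partner, had 1.06, *Prkab2*, an AMPK subunit, 1.00, and *Tbc1d7*, a subunit of the TSC complex, 0.67, with adjusted p from 0.148 to 0.203. Among 8 phagophore accessory factors, 0 were higher and 1 lower, *Rubcnl* (log2 fold change -1.27, adjusted p = 0.140), a regulator of autophagosome maturation, beside *Wdr45* (0.50) and *Vmp1* (-0.42). Of 17 other selective receptors and mitophagy genes, 1 was higher, *Wdfy3* (0.78), a scaffold for aggregates, and 1 lower, *Retreg1* (-1.13), the ER-phagy receptor, with *Bcl2l13* at 0.61. The median of that list was 0.27 (0.10 with median-of-ratios scaling). Counts of the accessory and mitophagy lists stand beside the same shares of all genes tested.

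The lysosome side was mixed. Of 25 lysosomal enzymes and membrane proteins, 1 was higher and 2 lower at an unadjusted p under 0.05, against 11.9% and 6.45% of all genes. The median of that list was 0.11 (-0.05 with median-of-ratios scaling). *Npc2*, the luminal cholesterol carrier, had -0.998 (adjusted p = 0.124), *Grn*, progranulin, -0.51, and *Mcoln1*, the lysosomal calcium channel, 0.55. Of 14 fusion factors, 0 were called in either direction, with values of -0.71 for the SNARE *Vamp8*, 0.41 for the tethering subunit *Vps41* and 0.42 for *Epg5*. *Npc2*, *Grn* and *Vamp8* are also known to be strongly expressed in myeloid cells, whose markers summed to less in cKO as given above. Of the 14 myeloid markers, 6 were lower at an unadjusted p under 0.05. The part of myeloid cells in these values was not tested. Of the 5 tested factors related to TFEB or known to regulate autophagy genes, 0 were called, with *Foxo1* at -0.50, *Zkscan3* at 0.20 and *Mitf* at 0.31, and *Tfec* did not pass the filter on low values.

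**Figure D5:**
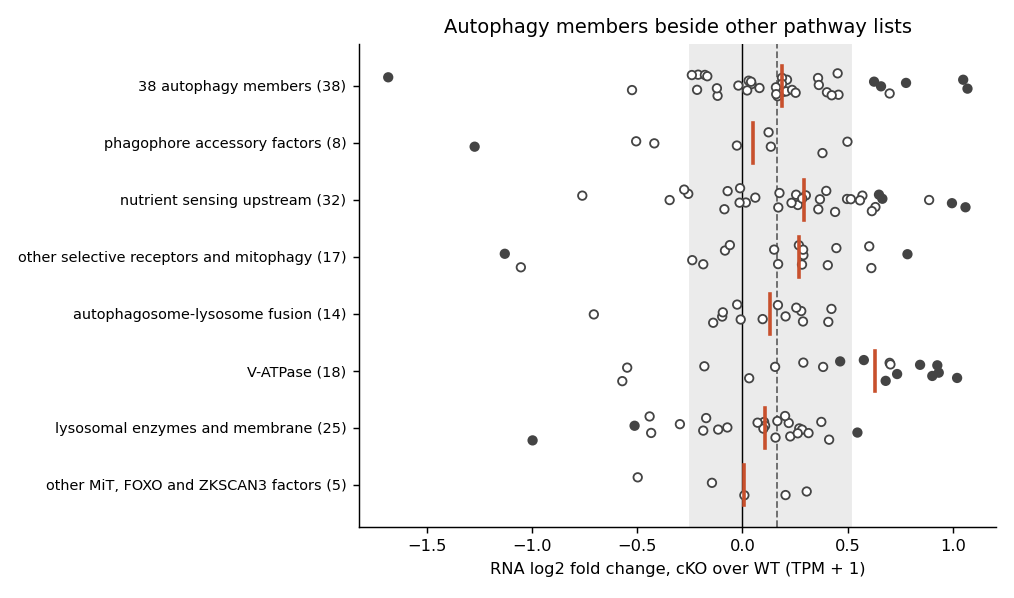
RNA log2 fold change (cKO over WT, TPM + 1) of the 38 autophagy members and of the genes of 7 other pathway lists, with the number of genes tested in parentheses. Each circle is a gene, filled where the unadjusted p is under 0.05, the red bar is the list's median, the grey band runs between the quartiles of all genes tested and the dashed line is their median (0.16). The members' median of 0.19 lies near that line, and the vacuolar ATPase median of 0.63 lies to its right.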

How the data were processed

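RNA-seq and ATAC-seq libraries of Thy1.2-sorted retinal cells were grouped as WT or cKO from the sample labels. The authors trimmed RNA-seq reads, quantified transcripts with Salmon 1.0.0 on GRCm38, summed them to genes and deposited TPM per library, which keeps no sequencing depth, so no counting error can be stated. The authors' ATAC-seq table gives log2 mean normalized reads per group from DiffBind, after alignment with Bowtie2 2.3.5.1. Peak positions were called per library, and MACS2 2.2.5 is named in the submitters' processing notes. The authors' own comparisons (fold changes, p-values and FDR, from DESeq2 1.26.0 for RNA-seq) were not used. Every sample column matched a library, leaving 0 unmapped.

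The genes tested reached 1 TPM in no fewer than 3 of 6 libraries. After adding a pseudocount of 1, limma 3.58.1 (R 4.3.3) was fitted to log2 values with a trend, with Benjamini-Hochberg adjustment over 17555 genes and a threshold of 0.05. Fold changes on this scale understate changes of low genes. The p-values measure the spread between these pooled samples. The fit was tested on simulated data. ATAC-seq differences, overlaps (at least 1 bp) and motif matches were computed in Python 3.11.15 with pandas 2.3.3 and scipy 1.17.1, and figures with matplotlib 3.10.9. The reference tables are RefSeq on GRCm38.p6.

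Members and lists were chosen with earlier results of these data known. Values in every library are given for members with an unadjusted p under 0.05 or groups apart, and for *Ulk1*, *Becn1*, *Sqstm1*, *Tfeb* and the 5 Atg8 genes. From each other list, up to 3 genes with the smallest p are named. Same-numbered libraries of both labels deviated together across genes (correlations 0.334, 0.101 and 0.425). Libraries of unlike number had correlations of -0.386 to 0.193. The highest of these, WT replicate 1 with cKO replicate 2, exceeded the value for number 2, whose pairing is therefore weakly founded. The replicate numbers were taken to pair the RNA-seq libraries, and the block was run as an alternative. Other alternatives were a pseudocount of 0.1, no filter, a mean TPM of at least 5, median-of-ratios scaling, no trend, leaving out each library, a difference of 2, a distance of 3000 bp, gene starts alone, subtraction of the median and a reciprocal overlap of 50%.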

Additional observations from a re-analysis of the deposited data

How the results depend on the processing

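The count of members at an adjusted p under 0.05 was 0 in every alternative run, including the fit with the replicate number as a block, where 6 members were higher (*Atg2b* added) and 1 lower at an unadjusted p under 0.05 against 5 and 1 without it. The block changed no other call. It lowered the SE from 0.88 to 0.20 for *Lamp1*, from 0.82 to 0.24 for *Atg3* and from 0.87 to 0.27 for *Uvrag*. Their adjusted p by limma with the block was 0.564, 0.782 and 0.672. Over all genes, the count at an adjusted p under 0.05 ran from 0 to 24 across settings, against 1. No paired analysis was possible because, for ATAC-seq, only values of whole groups are listed.

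Without each library in turn, members higher at an unadjusted p under 0.05 numbered 3 to 6 (3 without cKO replicate 1), and members lower 0 to 1 (0 without WT replicate 2 or 3 or cKO replicate 1 or 2), the member concerned being *Tfeb*. Members with all cKO libraries above all WT libraries numbered 6 to 10, with 10 without WT replicate 2 or cKO replicate 3, and members with all cKO libraries below numbered 0 to 3. With no filter on low values 0 members were lower at an unadjusted p under 0.05, and with median-of-ratios scaling 1 member, *Becn1*, had all cKO libraries below. *Optn*, *Atg16l1* and *Atg4c* kept an unadjusted p under 0.05 in each of these alternatives. The median log2 fold change of the members ran from 0.06 to 0.30 without each library and was 0.02 under scaling. Without 1 of the libraries the log2 fold change took both signs in 18 of the 38 members, and under scaling its sign turned in 7. Among the 14 members given in every library, the sign turned for *Map1lc3a* (-0.13 under scaling, and -0.30 to 0.55 over the left-out libraries), for *Gabarap* (-0.39 to 0.040 without cKO replicate 3) and for *Gabarapl2* (-0.041 without cKO replicate 1 to 0.43).

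Less the median of all regions, 17 members rather than 29 had a region lower by at least 1 (58.6%, against 53.4% of genes with a region) and the median difference was -1.315 rather than -2.885. At 3000 bp, 16 rather than 25 members had peaks of both WT libraries and of no cKO library (42.1%, against 27.1% of genes). Among those with peaks of both WT libraries, these were 16 of 32 members and 4200 of 9325 genes. At a reciprocal overlap of 50%, 0 rather than 3 members had a region that holds a cKO peak, with no share over all genes computed. The cause was not tested. Under the other alternatives, 68 values of the comparisons stayed within a preset tolerance of the main value. The fall of the members' median from 0.19 to 0.02 under scaling lay within that tolerance. For single genes, 162 values kept their sign and their side of the threshold. TPM and group values carry no depth, so what depth limits is unknown.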
